A study of Drosophila melanogaster with 18 samples.

Results

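The genes for mitochondrial ribosomal proteins of Drosophila melanogaster were followed through whole 3rd-instar larvae of 3 genotypes. Members were the genes of the deposited expression table whose name begins with mRpL or mRpS and a number. There were 70 of them among 12301 genes, 44 named for the large and 26 for the small subunit.

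Mitochondria keep their own ribosomes, which translate the few messages of mitochondrial DNA, nearly all of them for subunits of the respiratory chain. Every protein of these ribosomes is encoded in the nucleus, made in the cytosol and imported, while the ribosomal RNAs come from mitochondrial DNA. Some of the proteins have counterparts in bacterial ribosomes and others were added in mitochondria. NAT10 is the acetyltransferase that makes N4-acetylcytidine (ac4C) in RNA, and Xrp1 is a stress-induced bZIP transcription factor known in flies from cells that are short of cytosolic ribosomal proteins.

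In every genotype GAL4 was driven by da, a driver active throughout the body and held off at 18 °C by a temperature-sensitive GAL80, and larvae were shifted to 30 °C in the first instar. The first genotype carried RNAi constructs against NAT10 and Xrp1 (Dats-GAL4 > UAS-NAT10-RNAi Xrp1-RNAi), the second a construct against NAT10 alone (Dats-GAL4 > UAS-NAT10-RNAi), and the control the driver with no RNAi construct (Dats-GAL4/+). Each genotype had 3 replicates of 40 pooled larvae, and each replicate gave an input library of polyadenylated RNA fragments and a library of fragments captured with an ac4C antibody (IP). NAT10 RNAi larvae were taken after 120 h and control larvae after 72 h, so genotype and harvest time cannot be told apart in that comparison, and the labels give no harvest time for larvae with both constructs. Nothing in the labels says that the replicates were separate crosses, so p-values measure the spread between these samples.

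Input libraries held 15518179 to 24272099 reads in genes. The transcript of NAT10 (l(1)G0020) averaged 6.08 ± 0.0875 FPKM (fragments scaled by transcript length and library size) with both constructs, 5.63 ± 0.369 in NAT10 RNAi and 5.19 ± 0.247 in control (SD, n = 3 each). It was thus not lower in the libraries labelled with the NAT10 construct: against control the log2 fold change was 0.20 ± 0.06 with both constructs (limma adjusted p = 0.025, called higher) and 0.10 ± 0.06 in NAT10 RNAi (0.166, not called). Xrp1 averaged 41.7 ± 1.85 FPKM with both constructs, 385.5 ± 0.925 in NAT10 RNAi and 211 ± 2.82 in control.

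Mitoribosomal protein transcripts were of moderate to low abundance. The median member stood at 4.70, 5.35 and 5.06 FPKM in the libraries with both constructs, at 6.32, 6.12 and 6.25 in those of NAT10 RNAi and at 5.22, 4.85 and 5.03 in control. The 3 NAT10 RNAi medians lay above all 6 others, and those of the 2 other genotypes overlapped. All 70 members passed the filter of at least 1 FPKM in at least 3 libraries. mRpL17 passed only through its NAT10 RNAi values of 1.18, 1.28 and 1.06 FPKM. It had 1.12 in 1 library with both constructs and less than 1 in the rest. Its call as higher in NAT10 RNAi against control thus depends on a filter passed through the same libraries. The median member had 65.5 to 128.5 reads in a library and the lowest member 9 to 25, which limits the precision for single genes.

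**Figure D1:**
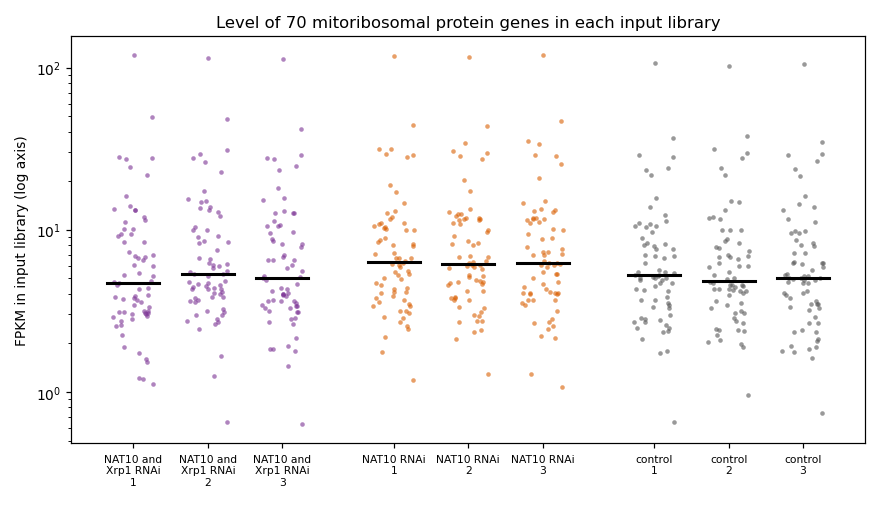
Level of the 70 mitoribosomal protein genes (FPKM, log axis) in each of the 9 input libraries; each point is a gene and each bar the median. The medians of the 3 NAT10 RNAi libraries lie at 6.12 to 6.32 FPKM, above those with both constructs and those of control.

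Levels differed widely between members. The 4 highest by mean FPKM over the 9 libraries were mRpL53, mRpL40, mRpL30 and mRpS7, and the 4 lowest were mRpS24, mRpS21, mRpS2 and mRpL17. mRpL40, whose mammalian counterpart sits in the central protuberance of the large subunit, stood at 49.3, 48.0 and 42.0 FPKM with both constructs, at 44.0, 43.8 and 47.0 in NAT10 RNAi and at 36.8, 38.1 and 34.5 in control. mRpL17, named for a bacterial large-subunit protein, stood at 1.12, 0.650 and 0.628 FPKM with both constructs, at 1.18, 1.28 and 1.06 in NAT10 RNAi and at 0.653, 0.952 and 0.741 in control. mRpL53 was listed at 102 to 120 FPKM over the 9 libraries, but all 829 of its exon bases are also exon of CG33155 on the same strand. Reads of those 2 genes cannot be told apart, so its level is uncertain. Of the 70 members, 41 share exon bases with some other gene, 39 of them only with a gene on the opposite strand, and the strand setting of the authors' counting is not given in the sources used here. In 7 members the shared part is at least 20% of the exon bases: mRpS9, mRpS24, mRpL48, mRpL17, mRpS14, mRpL53 and mRpS21.

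The first comparison set NAT10 RNAi larvae against control. Mitoribosomal protein genes were called higher far more often than lower: 32 of 70 rose and 2 fell (limma, Benjamini-Hochberg adjusted p under 0.05 over all tested genes). Of all 11557 tested genes, 47.3% were called higher and 18.9% lower, or 66.2% in either direction. The share of members called higher, 45.7%, was thus near that of all genes, while 2.86% were called lower. The median member had a log2 fold change of 0.24, against 0.17 over all tested genes. Fold changes were taken of log2(FPKM + 1), so those of weakly expressed genes come out too small. On that scale no member passed a 2-fold change, and by the plain ratio of mean FPKM 1 did, mRpL33. In RNA from whole larvae, fewer cells of a type and less RNA per cell cannot be told apart.

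The count depended on how libraries were scaled. After rescaling each library by its median ratio over genes, the median of all tested genes moved from 0.17 to 0.01 on the log2 scale, and 15 members were called higher and 6 lower. These are 21.4% and 8.57% of members, where 31.9% of all tested genes were then called higher and 31.5% lower. All 15 had been among the 32, and the members newly called lower were mRpL11, mRpS35, mRpS7 and mRpL12. Of the 32, 1 changed sign after rescaling: mRpL53, from 0.17 to -0.03. With edgeR on the recovered reads 16 members were higher and 6 lower, and with DESeq2 10 and 4.

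Calls were made among genes named for either subunit. Of 44 genes named for the large subunit 19 rose and 2 fell, with a median of 0.24. Of 26 named for the small subunit 13 rose and none fell, with a median of 0.26. These include mRpS30, which rose and whose mammalian counterpart sits in the large subunit. Split by number, 14 of the 40 genes numbered within the bacterial set (large up to 36, small up to 21) rose and 1 fell, with a median of 0.22. Of the 30 genes with higher numbers 18 rose and 1 fell, with a median of 0.32. The split goes by name and not by homology, since the mammalian counterpart of mRpS24, for one, does correspond to a bacterial protein. No test was made between these groups.

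The largest rise was that of mRpL45 (FBgn0263863, BDGP6 3R:22618492-22619826, plus strand), whose mammalian counterpart lies at the exit of the nascent chain and anchors the ribosome to the inner membrane. Its level was 8.67, 9.09 and 9.39 FPKM in NAT10 RNAi, against 4.89, 5.25 and 5.01 in control, without overlap. The log2 fold change was 0.73 ± 0.09 (SE; limma adjusted p = 3.55e-05), and 0.56 after rescaling. mRpL38, a protein of the central protuberance in mammals, had 3.47, 4.21 and 4.79 FPKM in NAT10 RNAi, against 2.47, 2.38 and 2.11 in control. It rose by 0.63 ± 0.10 on the log2 scale (limma adjusted p = 0.0003). mRpL49, a large-subunit protein without a bacterial counterpart, had 3.40, 4.57 and 3.5 FPKM in NAT10 RNAi, against 2.69, 2.01 and 1.79 in control. Its log2 fold change was 0.61 ± 0.13 (limma adjusted p = 0.00147).

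The other genes of the 6 with the largest rise belong to the small subunit. mRpS26 was the most abundant of them, with 31.5, 34.2 and 33.7 FPKM in NAT10 RNAi, against 21.7, 21.7 and 21.5 in control (log2 fold change 0.59 ± 0.05; limma adjusted p = 1.23e-06). mRpS22 had 10.4, 11.5 and 11.6 FPKM in NAT10 RNAi, against 6.99, 6.82 and 7.20 in control (0.60 ± 0.05; limma adjusted p = 2.51e-06). mRpS28 had 10.2, 12.6 and 11.8 FPKM in NAT10 RNAi, against 8.09, 7.67 and 6.19 in control (0.59 ± 0.10; limma adjusted p = 0.00034). None of these 6 genes overlapped between the genotypes. The same held for 30 of the 32 genes called higher. The share of all called genes without overlap was not counted, so this is not shown to be particular to the members. The 6 were picked from the 32 by size in the same libraries, so the lack of overlap is no separate support. All 6 stayed called under each of 17 alternatives, rescaling and both count tests among them. That held for 10 of the 32 genes in all, the other 4 being mRpL28, mRpS25, mRpS29 and mRpS31, which are named here after their values were seen. The share of all called genes that stay called under each alternative was not counted.

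mRpL33 went the other way. This gene (FBgn0040907, X:4321764-4322231, minus strand) encodes a small protein of the large subunit with a bacterial counterpart. It stood at 3.69, 2.95 and 2.54 FPKM in NAT10 RNAi, against 5.50, 5.96 and 7.95 in control, a ratio of means of 0.473. Its log2 fold change was -0.88 ± 0.13 (limma adjusted p = 0.000181), -1.03 after rescaling, and the call held under all 17 alternatives. It shares no exon base with another gene, and its lowest library in NAT10 RNAi held 16 reads, against 35 in control. It was also the only member in the authors' deposited table of differential genes, with a log2 fold change of -1.27 (authors' FDR 3.38e-06). That table lists 1261 genes, none with a change under 2-fold. The limma calls have no such limit, so their number cannot be set beside this one. The other member that fell, mRpL37, had 3.58, 3.67 and 3.67 FPKM in NAT10 RNAi, against 5.06, 4.29 and 4.73 in control. Its log2 fold change was -0.29 ± 0.10 (limma adjusted p = 0.0217). It did not pass once control replicate 1 was left out (limma adjusted p = 0.0776), nor without control replicate 3 (0.0548) or NAT10 RNAi replicate 1 (0.0568), and 1 member was then called lower.

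**Figure D2:**
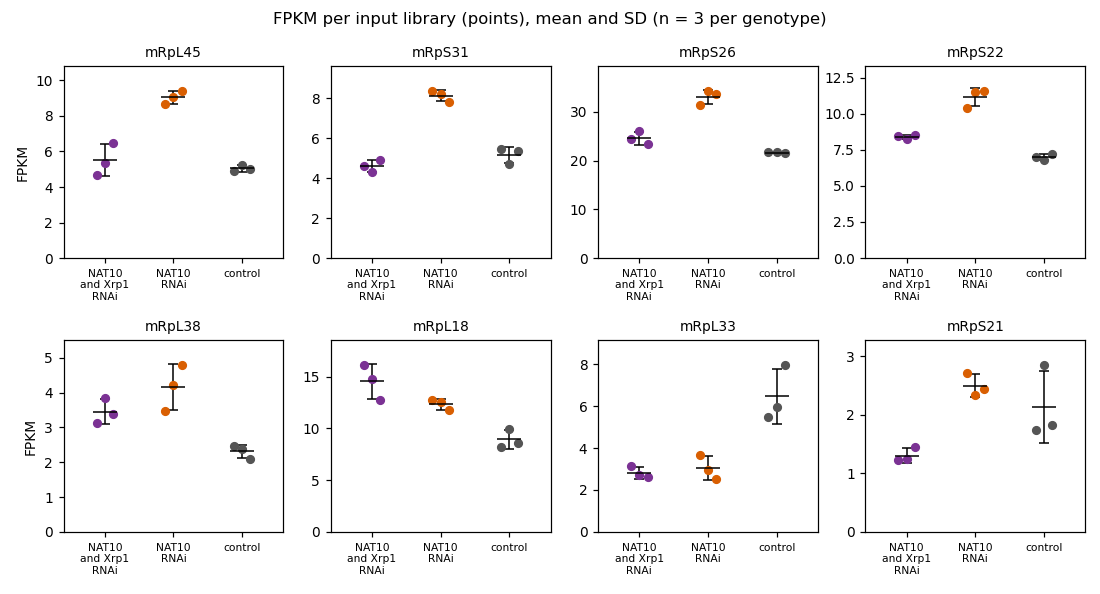
FPKM of 8 members per input library (points), with the mean and SD (n = 3) of each genotype; each panel has its own axis from 0. mRpL45, mRpS31, mRpS26 and mRpS22 are highest in NAT10 RNAi, mRpL18 is lowest in control, mRpL33 is highest in control, and mRpS21 is lowest with both constructs.

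Markers of some tissues moved with the same comparison. Of 16 muscle genes, from a tissue rich in mitochondria, 15 rose and 1 fell in NAT10 RNAi, and their summed level was 12791 to 12989 FPKM in NAT10 RNAi, against 5999 to 6217 in control. With both constructs the sum was 9959 to 10226 FPKM. All 7 salivary glue genes fell, with sums of 4604 to 4740 FPKM in NAT10 RNAi, against 36397 to 41025 in control. In the same comparison 8 of 12 digestive enzyme genes rose and 1 fell, 2 of 7 fat body genes rose and 5 fell, 1 of 6 larval cuticle genes rose and 4 fell, and 1 of 11 imaginal disc genes rose and 5 fell. Among all these markers 1, the cuticle gene Lcp65Ag1, was at 0 in some library. The part that tissue makeup or stage has in the values of mitoribosomal genes was not tested.

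The second comparison set larvae with both constructs against control. Here 16 members rose, 6 fell and 48 were not called, where 21.5% of all tested genes were called higher and 19.2% lower, 40.8% in all. The share of members called higher, 22.9%, was near that of all genes, and 8.57% were called lower. The median member had a log2 fold change of 0.03, against 0.00 over all tested genes. After rescaling 17 members were higher and 6 lower (24.3% and 8.57%, against 21.2% and 20.5% of all tested genes), including all 16 and all 6. Of the tissue markers, 14 of 16 muscle genes and 9 of 12 digestive enzyme genes rose and all 7 glue genes fell, and their part in the values was not tested. Genes numbered beyond the bacterial set had 10 of 30 higher and 1 lower, with a median of 0.11, and those numbered within it 6 of 40 higher and 5 lower, with a median of 0.00.

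mRpL18 (FBgn0026741, 2R:12756434-12757173, plus strand), whose bacterial counterpart binds the 5S ribosomal RNA, rose most. It had 16.1, 14.8 and 12.7 FPKM with both constructs, 12.7, 12.5 and 11.7 in NAT10 RNAi and 8.23, 9.97 and 8.59 in control. Against control the log2 fold change with both constructs was 0.64 ± 0.09 (limma adjusted p = 0.000226), and it held under all 17 alternatives. It had also risen in NAT10 RNAi, by 0.43 ± 0.09 (limma adjusted p = 0.00133; 0.25 after rescaling; not called by DESeq2, adjusted p = 0.0866). The difference between the RNAi genotypes was 0.22 ± 0.09 with a limma adjusted p of 0.0509, and 0.40 after rescaling (adjusted p = 0.00434), so that call rests on the scaling.

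mRpL38, mRpL48, mRpS14, mRpL49 and mRpL21 followed. mRpL38 was at 3.13, 3.84 and 3.40 FPKM with both constructs, all above the control values given above (log2 fold change 0.42 ± 0.10; limma adjusted p = 0.00757). mRpL48, like mRpL38 a protein of the central protuberance in mammals, had 6.76, 5.99 and 6.48 FPKM with both constructs, against 5.00, 4.21 and 4.9 in control (0.38 ± 0.07; limma adjusted p = 0.00163). mRpS14, of a conserved small-subunit family, had 10.1, 10.0 and 8.15 FPKM with both constructs, against 7.98, 6.98 and 6.16 in control (0.37 ± 0.10; limma adjusted p = 0.0103). mRpL48 shares 164 exon bases with frtz on the opposite strand. mRpS14 shares exon bases with CG32533 on its own strand and with Naa15-16 on the other, at most 255 with either. mRpL21 had 3.11, 3.66 and 3.69 FPKM with both constructs, against 2.81, 2.39 and 2.35 in control, and rose by 0.35 ± 0.09 (limma adjusted p = 0.0117). The call of mRpL49 (0.35 ± 0.13; limma adjusted p = 0.0444) did not hold without control replicate 2 (0.121), control replicate 3 (0.152) or replicate 3 with both constructs (0.137), among others.

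Among the 6 members that fell, mRpL33 again led, with 3.14, 2.71 and 2.62 FPKM with both constructs, below all 3 control values (log2 fold change -0.95 ± 0.13; limma adjusted p = 0.000278). In the authors' deposited table of 346 differential genes it was again the single member, with a log2 fold change of -1.20 (authors' FDR 0.000159). That table, too, lists no change under 2-fold. mRpS21, whose bacterial counterpart takes part in the start of translation, had 1.22, 1.24 and 1.44 FPKM with both constructs, against 1.73, 2.84 and 1.82 in control (-0.43 ± 0.12; limma adjusted p = 0.018). It was called by neither edgeR (adjusted p = 0.0549) nor DESeq2 (0.152), its lowest library held 9 reads, and 228 of its exon bases are shared with CG8870 on the opposite strand. The remaining calls were small: mRpL2, at the catalytic centre in bacteria, at -0.29, mRpL37 at -0.28, mRpL12, of the stalk that recruits translation factors, at -0.20, and mRpS5, which in bacteria affects decoding accuracy, at -0.17. The values of mRpL37 and mRpS5 overlapped between these genotypes. Each of these was lost when some single library was left out, such as control replicate 2 for mRpL2 (limma adjusted p = 0.0864), mRpL12 (0.0652) and mRpS5 (0.12), or control replicate 1 for mRpL37 (0.127). With single libraries left out, 2 to 7 members were called lower. The count was 3 without control replicate 2, 2 without control replicate 3 and 3 without replicate 1 of the larvae with both constructs.

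The third comparison set larvae with both constructs against NAT10 RNAi larvae. They differ in the Xrp1 construct and may also differ in age, since no collection time is stated for the former. The part of age was not tested. No member was called higher and 27 of 70 fell, against 15.2% of all tested genes called higher and 46.1% lower, 61.4% in all. The median member had a log2 fold change of -0.20, against -0.16 over all tested genes. At an unadjusted limma p under 0.05, 31 members differed in either direction. All tested genes were not counted at that threshold, so this number is no result about the members. After rescaling, which moved the median of all tested genes to 0.00, 13 members were called higher and 10 lower, or 18.6% and 14.3%, against 28.2% and 27.6% of all tested genes. All 10 had been among the 27, of which 1, mRpL12, changed sign. edgeR called 8 higher and 8 lower, and DESeq2 6 and 4. The median member stayed below 0, at -0.047 after rescaling, -0.068 with edgeR and -0.049 with DESeq2. Over all tested genes the median was 0.00, -0.016 and -0.0006 in the same order. Calls of members in these settings were higher at least as often as lower. The falls of mRpL45, mRpS31, mRpS26 and mRpL2 held under all 17 alternatives. Tissue markers moved here too: 12 of 16 muscle genes fell and 2 rose, 7 of 12 digestive enzyme genes fell and 2 rose, 6 of 7 fat body genes rose and 1 fell, and 5 of 6 larval cuticle genes rose. Their part in the values was not tested.

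The largest fall was that of mRpS31 (FBgn0036557, 3L:16005193-16006599, plus strand), a small-subunit protein added in mitochondria. It had 4.59, 4.30 and 4.91 FPKM with both constructs, against 8.34, 8.19 and 7.80 in NAT10 RNAi (log2 fold change -0.70 ± 0.07; limma adjusted p = 8.29e-06). Its control values of 5.45, 4.68 and 5.34 FPKM overlapped those with both constructs (-0.14 ± 0.07; limma adjusted p = 0.135). mRpL45 fell by 0.64 ± 0.09 on the log2 scale (limma adjusted p = 0.00013), to 4.67, 5.36 and 6.46 FPKM with both constructs, which overlapped its control values. mRpS21 fell by 0.60 ± 0.12 (limma adjusted p = 0.00164; 0.104 by DESeq2), with the values given above, against 2.71, 2.34 and 2.45 FPKM in NAT10 RNAi, which were not called against control (limma adjusted p = 0.228). mRpL2 had 3.04, 4.49 and 4.36 FPKM with both constructs, against 6.14, 5.94 and 6.07 in NAT10 RNAi (-0.52 ± 0.10; limma adjusted p = 0.00142). mRpS6 (-0.45 ± 0.15; limma adjusted p = 0.0262; 0.134 after rescaling) and mRpL46, of the central protuberance in mammals (-0.44 ± 0.09; limma adjusted p = 0.00153; 0.0939 by DESeq2), completed the 6. The call of mRpS6 was lost without NAT10 RNAi replicate 1 (limma adjusted p = 0.0749), NAT10 RNAi replicate 2 (0.0751) or replicate 2 of the larvae with both constructs (0.0929).

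**Figure D3:**
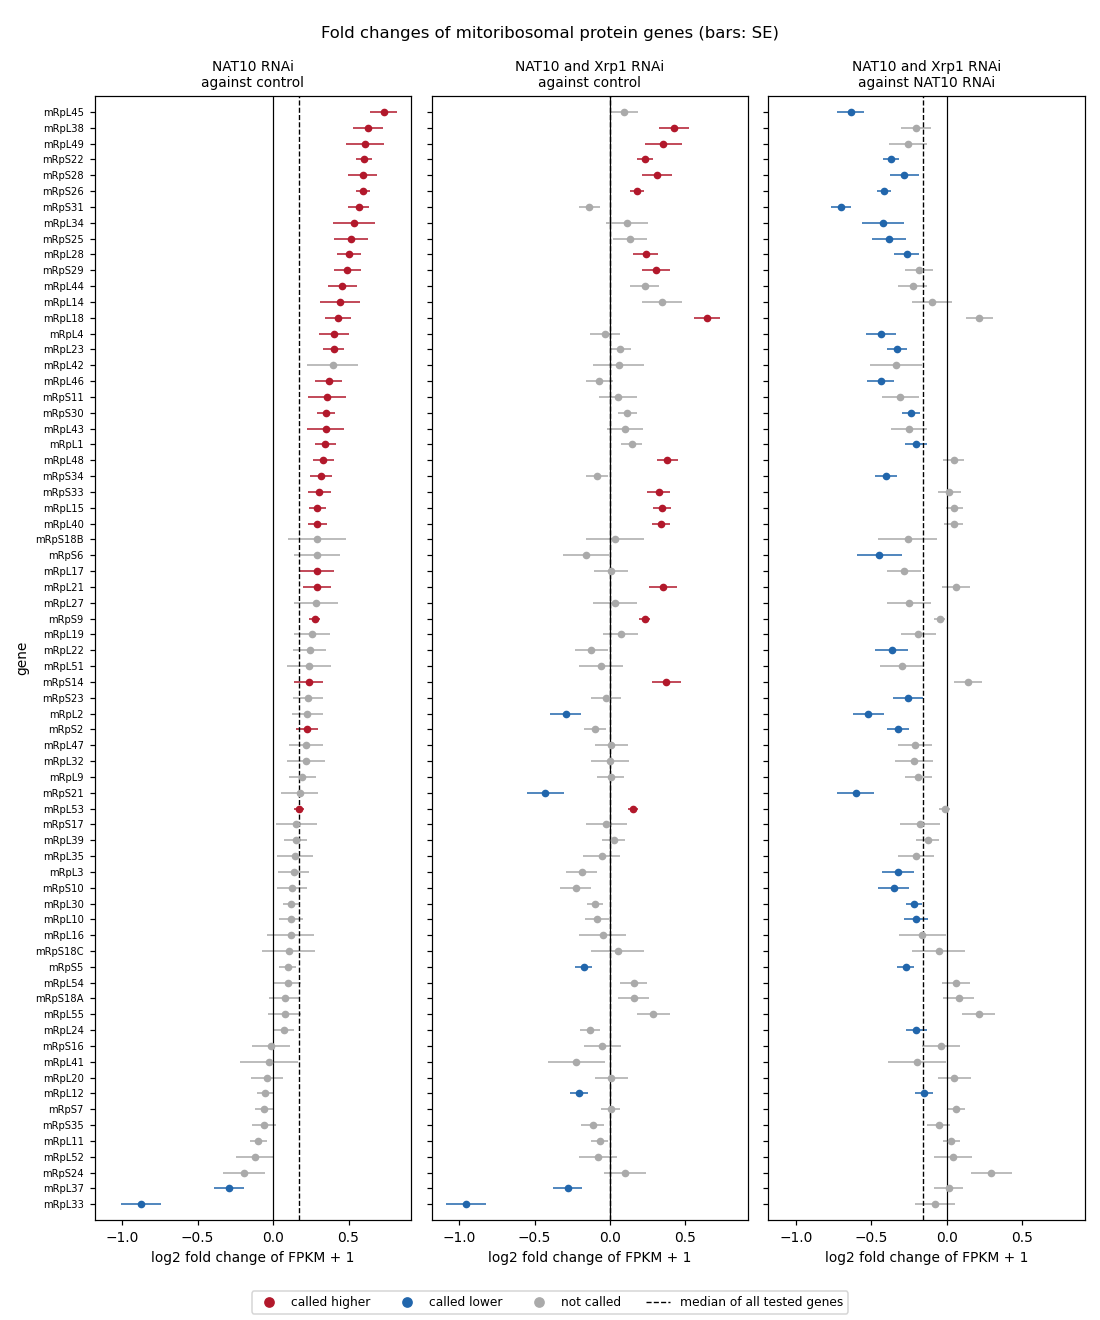
Log2 fold change of FPKM + 1 with its standard error for each of the 70 members in the 3 comparisons, ordered by the first; red and blue points passed the limma test. The dashed line is the median of all tested genes, at 0.17, 0.00 and -0.16, and most members lie near it.

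Set side by side, the 3 comparisons sort the members into 8 patterns. How many of all tested genes show each pattern was not counted, so none is shown to be particular to the members. The comparisons share libraries pairwise, so their values are not independent: a high NAT10 RNAi library raises the first fold change and lowers the third. The patterns also depend on the scaling: after rescaling 29 of the 70 members had the same pattern of calls. In 11 members the NAT10 RNAi level was called above control and the level with both constructs was called below NAT10 RNAi and not called against control. mRpL45, mRpS31, mRpL34 and mRpL46 were among them. In 12 members, among them mRpL18, mRpL38, mRpL40, mRpL48 and mRpL49, both RNAi genotypes were called above control and not called apart, but after rescaling 7 of these 12 were called higher with both constructs than in NAT10 RNAi. In 4 members, mRpL28, mRpS22, mRpS26 and mRpS28, both were called above control and larvae with both constructs were called below NAT10 RNAi. mRpS26, for example, had 24.5, 26.0 and 23.3 FPKM with both constructs, between the 2 other genotypes. 5 members were called only in NAT10 RNAi against control, 2 (mRpL33 and mRpL37) fell in both RNAi genotypes, 4 fell with both constructs against each of the others (mRpL2, mRpL12, mRpS5 and mRpS21), and 8 fell only against NAT10 RNAi. The remaining 24 were not called in any comparison, although 7 of them (mRpL11, mRpL54, mRpL55, mRpS7, mRpS18A, mRpS24 and mRpS35) were called in at least 1 after rescaling. The intervals do not exclude small changes: over all 70 members the 95% interval of a log2 fold change had a median width of 0.44.

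Other genes of mitochondrial gene expression are given next. Their counts stand against the shares of all tested genes given above, 47.3% higher and 18.9% lower in NAT10 RNAi against control (median 0.17), and with both constructs 21.5% and 19.2% against control (median 0.00) and 15.2% and 46.1% against NAT10 RNAi (median -0.16). Of 9 translation factors of mitochondria 6 rose and none fell in NAT10 RNAi against control, with a median log2 fold change of 0.40. The elongation factor mEFTu1, which brings aminoacyl-tRNA to the ribosome, had 30.4, 33.4 and 32.6 FPKM in NAT10 RNAi, against 18.6, 19.8 and 18.8 in control (0.72 ± 0.05; limma adjusted p = 2.72e-07). With both constructs it was at 26.8, 27.0 and 25.2 FPKM, between the 2 and apart from either. mEFTs, its exchange factor, stood at 35.1, 41.1 and 41.4 FPKM with both constructs, 51.3, 51.9 and 51.5 in NAT10 RNAi and 38.5, 36.8 and 36.9 in control. It rose in NAT10 RNAi against control by 0.45 ± 0.06 (limma adjusted p = 4.19e-05) and fell with both constructs against NAT10 RNAi by 0.39 ± 0.06 (limma adjusted p = 0.000164). With both constructs against control 2 of the 9 factors rose and none fell, and against NAT10 RNAi 1 rose and 4 fell.

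Of 17 tested aminoacyl-tRNA synthetases and amidotransferase subunits of mitochondria, 7 rose and 2 fell in NAT10 RNAi against control (median 0.16), a share of higher calls below that of all genes. With both constructs 1 rose and 1 fell against control, and 1 rose and 7 fell against NAT10 RNAi. Of 14 genes that copy or express mitochondrial DNA, 7 rose and none fell in NAT10 RNAi against control (median 0.32), led by mtRNApol, the mitochondrial RNA polymerase (0.75 ± 0.07; limma adjusted p = 7.78e-06). With both constructs 3 rose and 1 fell against control, and none rose and 8 fell against NAT10 RNAi. DNApol-gamma35 of this list and GatC, an amidotransferase subunit of the list before, had identical values against NAT10 RNAi (log2 fold change -0.24 ± 0.07). They are named for that reason, and the same values thus count as a fall in both lists. Of 12 mitochondrial chaperones and proteases, 11 rose and 1 fell in NAT10 RNAi against control (median 0.51), and with both constructs 10 fell and 1 rose against NAT10 RNAi. tko and bonsai, which encode mitoribosomal proteins under other names, were not called in any comparison. bonsai had 8.34, 8.56 and 10.2 FPKM with both constructs, 10.8, 10.1 and 10.2 in NAT10 RNAi and 10.3, 7.58 and 8.60 in control.

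Larger families give the scale. Of 80 oxidative phosphorylation genes by name, 58 rose and 2 fell in NAT10 RNAi against control, with a median of 0.42, above that of the mitoribosomal genes. For the 90 genes of the cytosolic ribosome, 73 were called higher and 1 lower, with a median of 0.32. Against NAT10 RNAi, 46 of the first fell and 3 rose with both constructs (median -0.31), and 78 of the second fell and none rose (median -0.32). With both constructs against control the counts were 27 higher and 4 lower for oxidative phosphorylation genes (median 0.10), and 14 higher and 19 lower for cytosolic ribosomal protein genes (median -0.03). These families were not tested against the mitoribosomal genes.

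Capture with the ac4C antibody was then examined. The authors deposited 1 peak list per genotype, with a fold enrichment, p-value and FDR for each peak that are the authors' own, so these lists carry no replicate error. A member was counted when a listed peak overlapped its exons on the same strand. With both constructs 50 of 70 members (71.4%) had a peak, and 49 had one in NAT10 RNAi and likewise in control. Of 12280 table genes matched to the annotation, 80.4% had a peak with both constructs, 81.1% in NAT10 RNAi and 82.3% in control, so the share was lower among members in each list. Members are short, with a median transcript of 792 nt, against 1924 nt for coding genes of the table, and their mean FPKM had a median of 5.49, against 7.62 over tested genes. The part of length and level in the share was not tested. In control, members with a peak had a median exonic length of 905 nt and those without one 628 nt.

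Most members with a peak had one in every genotype. A peak was present in all 3 lists for 41 members, in 2 lists for 9, in 1 for 7 and in none for 13. The same counts were not made over all genes. The 13 were mRpL9, mRpL18, mRpL23, mRpL33, mRpL41, mRpL42, mRpL55, mRpS5, mRpS17, mRpS18A, mRpS18B, mRpS21 and mRpS33. They include mRpL33 and mRpL18, the members with the largest fall and the largest rise with both constructs against control. Of the 32 members that rose in NAT10 RNAi against control, 22 had a peak in all 3 lists and 3 had none, and of the 36 not called 18 had a peak in all 3 and 9 had none. In each list members with a peak had a higher median level than those without one, in NAT10 RNAi 6.91 against 4.77 FPKM. The part of level in this split was not tested.

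Over members there were 70 peaks with both constructs, 67 in NAT10 RNAi and 80 in control. Of the 80 control peaks on members, 49 overlapped a peak of both RNAi lists, or 61.3%, against 58.9% of all control peaks. With a required overlap of 50% of each peak, 32 did, and all control peaks were not counted under that rule. The median fold enrichment of member peaks was 2.08 with both constructs, 2.01 in NAT10 RNAi and 2.02 in control, against 2.18, 2.07 and 2.22 over the whole lists in the same order. Among the 41 members with a peak in every list, the median of the largest fold enrichment was 2.40 with both constructs, 2.29 in NAT10 RNAi and 2.46 in control. These medians stand close together, and without replicate lists no test of a difference was possible.

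Peaks lay mostly in coding sequence. By their midpoint, 91.4% of member peaks were coding with both constructs, 91.0% in NAT10 RNAi and 83.8% in control. Over all peaks on coding genes the shares were 68.1% with both constructs, 67.0% in NAT10 RNAi and 71.3% in control. Coding sequence makes up a median of 79.8% of a member transcript, against 73.3% for coding genes of the table. In control 9 member peaks lay in the 3′ UTR and 4 in the 5′ UTR.

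The strongest peaks differed between lists. With both constructs the largest fold enrichment was 11.9, on mRpL35 (3R:22023822-22023908, coding), a site with no peak of the gene in the other lists. At a second site of that gene (from 3R:22024139) the fold enrichment was 4.91 with both constructs, 1.90 in NAT10 RNAi and 3.57 in control. mRpS14 followed at 7.37, mRpL30 at 6.32, mRpS18C at 6.11, and mRpL34 and mRpL16 at 5.97 each. The peak of mRpS14 lies at the end of the gene beside another gene on the same strand, and it and the peak of mRpL16 have an authors' FDR of 0.0537 and 0.13. In NAT10 RNAi the largest was 13.2, on mRpS10 (3R:15230168-15230516, coding), against 3.5 with both constructs and 2.38 in control. mRpL12 followed at 10.7, mRpL40 at 9.69, mRpL17 at 8.66, mRpL49 at 5.78 and mRpL34 at 4.64. In control the largest was 12.8, on mRpL46 (3L:1778083-1778259, coding), against 1.95 in NAT10 RNAi and no peak with both constructs. mRpS30, whose mammalian counterpart sits in the large subunit despite its name, followed at 10.0, then mRpL34 at 9.32, mRpL12 at 6.33, mRpL49 at 5.61 and mRpS28 at 5.55.

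mRpL34 and mRpL49 had a fold enrichment above 4 in all 3 lists: mRpL34 at 5.97, 4.64 and 9.32 and mRpL49 at 5.00, 5.78 and 5.61 with both constructs, in NAT10 RNAi and in control. These were chosen after their values were seen. A fold enrichment of at least 4 was reached by 9 members with both constructs, 8 in NAT10 RNAi and 11 in control. The share of all genes that reach it was not counted.

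**Figure D4:**
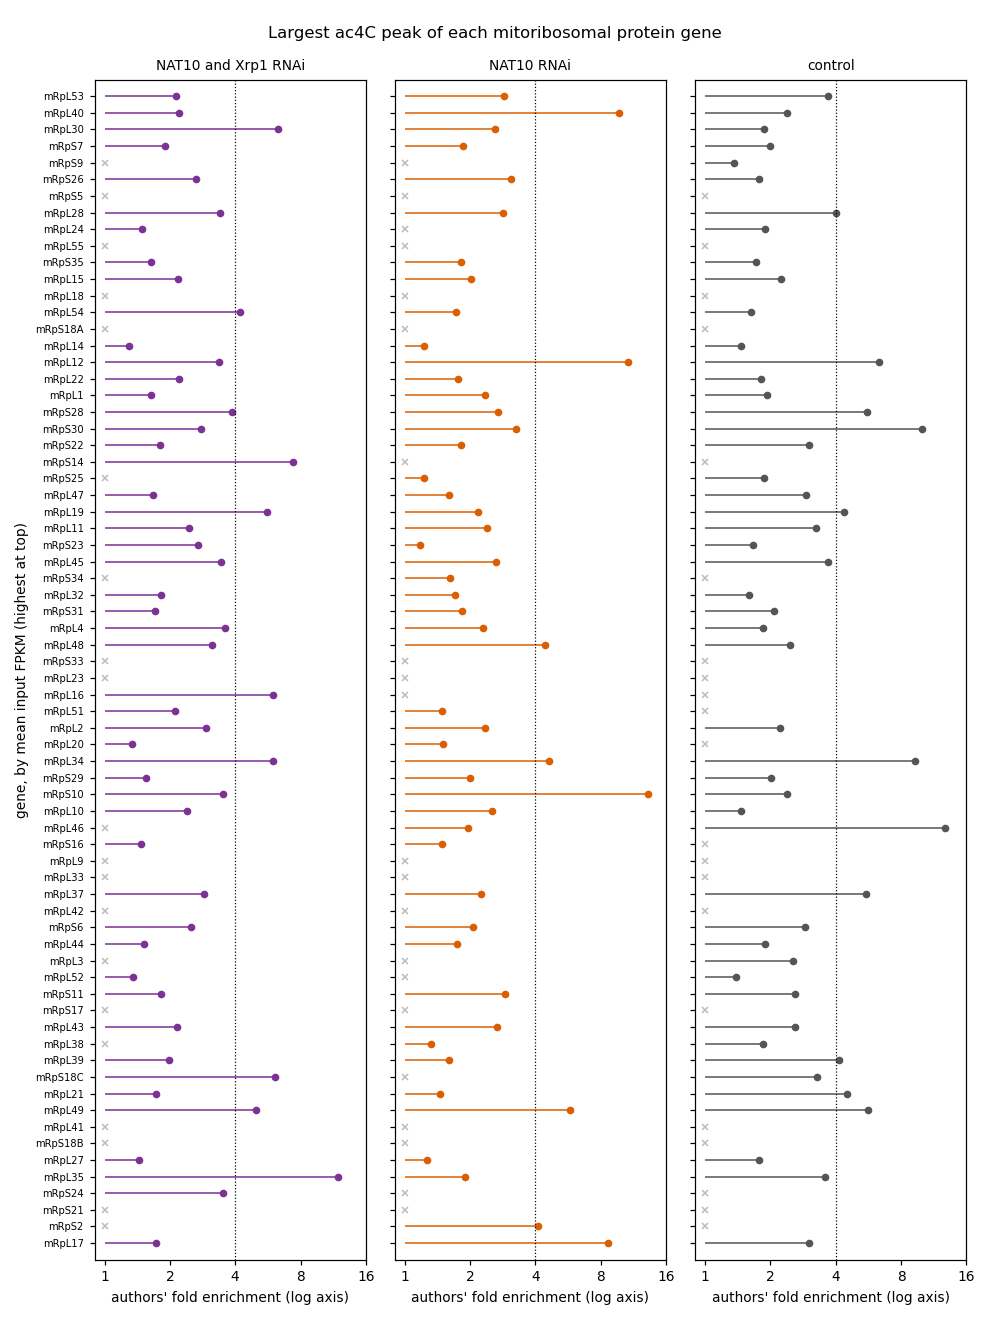
Largest authors' fold enrichment (log axis) of an ac4C peak on each of the 70 members, 1 panel per genotype, ordered by mean input FPKM; crosses mark members without a listed peak and the dotted line a fold enrichment of 4. A peak at or above that line is present on 9, 8 and 11 members, and mRpL34 and mRpL49 pass it in all 3.

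The authors' deposited tables of differential peaks, which list peaks with an unadjusted p under 0.05, name 3 members. In the table of NAT10 RNAi against control, 1 of 1336 listed peaks lay on a member, mRpL19 (3R:8675048-8675196, coding), a large-subunit protein that lies at the contact between subunits in bacteria. The IP libraries held 55, 38 and 32 reads in NAT10 RNAi, against 55, 55 and 41 in control. The input libraries held 15, 25 and 30 reads in NAT10 RNAi, against 9, 7 and 10 in control. Input reads were thus higher in NAT10 RNAi without overlap, while IP reads overlapped. The authors' log2 change of enrichment was -1.48 (authors' p = 0.000425, FDR 0.0254). Over the whole gene, mRpL19 was at 6.27, 8.26 and 8.92 FPKM in NAT10 RNAi, against 6.72, 6.62 and 5.63 in control (log2 fold change 0.26 ± 0.12; limma adjusted p = 0.0751).

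In the table of both constructs against control, 2 of 1316 listed peaks lay on members. The peak on mRpS24 (3R:24162829-24162919, minus strand, coding) had 26, 15 and 25 IP reads with both constructs, against 15, 17 and 15 in control. Its input libraries held 1, 2 and 2 reads with both constructs, against 9, 6 and 8 in control. The authors' log2 change was 2.72 (authors' FDR 0.0372), and it rests on input counts of at most 2 in the larvae with both constructs. The gene shares 332 exon bases with TBC1d7 on the opposite strand. The peak on mRpS23 (2L:13834870-13835072, minus strand, coding) had 55, 41 and 49 IP reads with both constructs, against 45, 42 and 47 in control. Its input libraries held 4, 11 and 10 reads with both constructs, against 17, 14 and 17 in control. The authors' log2 change was 1.10 (authors' p = 0.0254, FDR 0.279), so it did not pass an FDR of 0.05. In all 3 peaks IP reads overlapped between genotypes and input reads did not. These reads were not scaled for library depth, and how many other listed peaks behave this way was not counted.

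**Figure D5:**
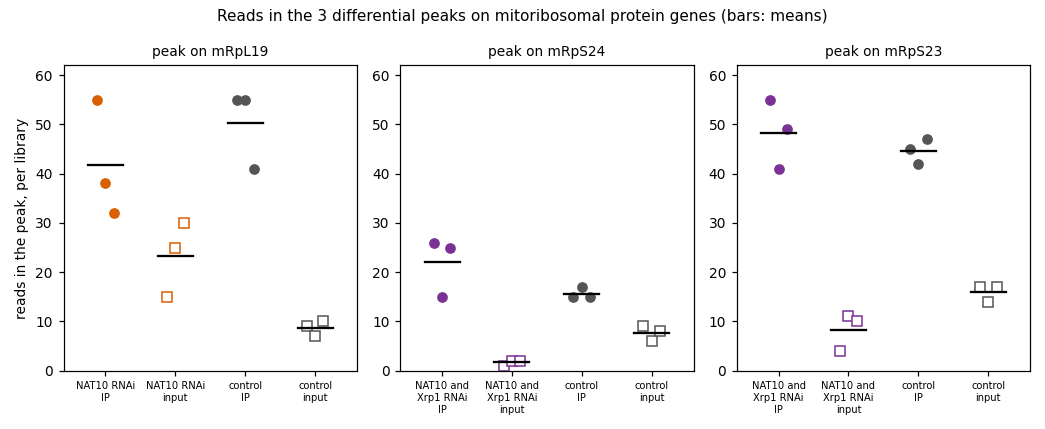
Reads per library, not scaled for depth, in the 3 differential peaks on members, in IP (filled) and input (open) libraries of the RNAi genotype and of control, with means as bars. IP reads overlap between genotypes in each panel, and input reads do not: they are higher in NAT10 RNAi for mRpL19 and lower with both constructs for mRpS24 and mRpS23.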

How the data were processed

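Input and ac4C-IP libraries were made from whole larvae (3 genotypes, 3 replicates). The submitters' processing notes name STAR 2.7.6a and fastp 0.23.1, HOMER 4.9.1 and deepTools 3.5.1, Subread's featureCounts 1.5.1, the build BDGP6 and bedtools 2.30.0, without the step of each. Which program called peaks, and whether the 12-base molecular identifiers were used, was not given in the sources used here. The main table the authors deposited holds, per the file headers, FPKM per gene and input library. The deposited tables of differential genes hold the authors' log2 fold change and p-value with FDR. The deposited peak lists hold a fold enrichment (ratio) and p-value with FDR per peak, and the deposited differential peak tables hold read counts per peak and library with a log2 change. A further 12 per-library columns, in the differential gene tables, were left unused.

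Multiplied by gene length, 100% of FPKM values were whole multiples of 1 step per library (within 0.1 of a read), which gave reads per gene. limma 3.58.1 in R 4.3.3 (trend, robust) was fitted to log2(FPKM + 1) of all 9 input libraries, with genes at 1 FPKM or more in at least 3 libraries (11557), two-sided, Benjamini-Hochberg over all of them. edgeR 4.0.16 and DESeq2 1.42.0 on the recovered reads were alternatives. edgeR called 3936 genes higher and 3666 lower in NAT10 RNAi against control, 2579 and 2562 with both constructs against control, and 3273 and 3491 against NAT10 RNAi; DESeq2 called 3393 and 3431, 2147 and 2082, and 3045 and 2836 in the same order. The fitting scripts were tested on simulated data. Peak starts were moved by 1 base, since 726 to 846 per list then fell on an exon start, against 60 to 62 as listed. The peak lists carry no gene names, so peaks were assigned with bedtools 2.31.1 by at least 1 base of same-strand exon (Ensembl annotation of the same assembly, in which 12280 of 12301 table genes and all 70 members were found) in place of the authors' annotation that had been planned. Overlapping entries of one list on one gene counted once (2 dropped per list).

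The members and all gene lists were chosen with earlier results of these data known, so no set test and no p for a list is given. Genes are named by rule: the 6 called members with the largest fold each way per comparison, the 4 highest and 4 lowest in level, the 6 strongest peaks per list, members in the authors' differential tables, and called genes of other lists by size. 3 further annotated genes of the family were not analysed here. No sequence of these genes was used here.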

Additional observations from a re-analysis of the deposited data

How the results depend on the processing

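The settings tried were pseudocounts of 0.1 and 5, no filter, rescaling by the median ratio, only the compared genotypes, a replicate block, edgeR, DESeq2 and each library left out, and stricter or looser peak rules; the either-strand and half-peak rules and the count without overlapping genes were added after seeing the data. In NAT10 RNAi against control 34 members were called; rescaling gave 21 (15 higher, 6 lower; median 0.076), edgeR 22 (16, 6; 0.10), DESeq2 14 (10, 4; 0.085), and a pseudocount of 5 a median of 0.15. Leaving out 1 library gave 29 to 40 calls, 28 to 38 higher, 1 to 2 lower and a median of 0.23 to 0.27. With both constructs against control 22 were called; DESeq2 gave 14 (2 lower), the compared genotypes alone 3 lower, and leaving out 1 library 15 to 22, with 12 to 19 higher, 2 to 7 lower and a median of -0.02 to 0.09. With both constructs against NAT10 RNAi 27 were called lower and 0 higher. Higher calls were 13 (10 lower; median -0.047) after rescaling, 8 of 16 (8 lower; -0.068) with edgeR, 6 of 10 (4 lower; -0.049) with DESeq2, and 1 with a pseudocount of 5 (median -0.11) and with the compared genotypes alone. Leaving out 1 library gave 22 to 31 calls, 0 to 2 higher, 21 to 31 lower and a median of -0.26 to -0.16. Without the 7 members that share at least 20% of exon bases, 27 of 63 rose and 2 fell in the first comparison, 12 and 5 in the second and 0 and 26 in the third. The cause of these shifts was not tested. A fold enrichment of at least 4 left 9 members with a peak for both constructs, 8 for NAT10 RNAi and 11 for control. An overlap of 50% of each peak left 32 peaks shared by all 3 lists. Among the called genes named by size, fold changes of single genes kept their direction in all settings, with 388 values on the same side of the threshold and 54 no longer past it. Outside them mRpL53 (NAT10 RNAi against control) and mRpL12 (both constructs against NAT10 RNAi) changed sign after rescaling.

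Same-numbered input libraries of different genotypes did not deviate together (correlations of -0.07 to 0.08). Differently numbered ones had correlations of -0.11 to 0.09. No pairing by number was thus seen between genotypes, but the check cannot show whether samples shared a cross or a day. With the replicate block 32 members rose and 2 fell in NAT10 RNAi against control, 17 and 4 with both constructs against control, and 3 and 26 against NAT10 RNAi. Low reads per gene limit the smaller changes.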

Other observations

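Peaks were also listed on the mitochondrial genome, whose transcripts the ribosomes built from these proteins translate: 13 with both constructs, 9 in NAT10 RNAi and 12 in control. The highest fold enrichment there lay on mt:CoII, a cytochrome oxidase subunit, at 3.83 with both constructs, 4.27 in NAT10 RNAi and 5.63 in control. mt:lrRNA, the large ribosomal RNA of mitochondria, had a peak in each list, at 1.72 with both constructs, 1.45 in NAT10 RNAi and 1.38 in control. mt:srRNA, the small one, had a peak with both constructs, at 3.10 (authors' FDR 0.0129). The RNA was selected by poly(A), there is 1 list per genotype, and no mitochondrial gene is among the expression values used here, so no comparison was made. In the authors' deposited table of NAT10 RNAi against control, a differential peak was also listed for mRpL13, which had no expression value used here. It held 10, 18 and 13 IP reads in NAT10 RNAi, against 19, 24 and 29 in control, and 16, 10 and 5 input reads in NAT10 RNAi, against 4, 4 and 4 in control. Unlike in the differential peaks on members, IP reads did not overlap between genotypes here, and neither did input reads. The authors' log2 change was -2.04 (authors' FDR 0.0769).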
